A study of Mus musculus with 24 samples.

Results

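The data described here compare inguinal white adipose tissue (iWAT) of mice labelled as a knockout (KO) of Lpcat3 with that of mice labelled wild type (WT), both kept on a high-fat diet enriched in omega-6 fatty acids (n6). The comparison rests on 8 libraries of the 24 in the series, 4 from KO and 4 from WT, chosen by their labels alone, and it covers every gene with enough counts to test. All 8 came from male mice of 18 to 22 weeks, and the diet gave 60% of its calories as fat. The other 16 libraries are 4 per genotype on a diet enriched in saturated fat (SFA) and 4 per genotype on a diet enriched in omega-3 fatty acids (n3), with the same sex, age range and fat content. Poly(A) RNA was sequenced in bulk.

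The labels call the genotype KO and the design text calls the mice AdL3KO, but neither gives the construct, the promoter that drives any recombinase or whether the WT animals carry part of it. The title of the series speaks of mature adipocytes, whereas the labels name the tissue as iWAT and the extraction text describes no isolation of cells. Nothing in the labels says that the 4 libraries of a group came from separate animals, so the p-values measure the spread between libraries within groups. That spread was estimated from all 24 libraries of the series, fitted together.

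LPCAT3 is an acyltransferase of the endoplasmic reticulum. In the remodelling of phospholipids known as the Lands cycle, phospholipases remove a fatty acid from a phospholipid and LPCAT3 puts a polyunsaturated one, such as linoleate or arachidonate, in its place. SREBP transcription factors are held in the same membrane, bound to SCAP and INSIG proteins, and once released and cleaved they switch on the genes of fatty acid and cholesterol synthesis. White adipocytes use that synthesis, together with uptake from the blood, to fill their lipid droplet.

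Each n6 library held 43599424 to 54615869 estimated counts assigned to genes. Levels are given as CPM, counts divided by the library size in units of 1000000 counts, with library sizes scaled by the trimmed mean of M values (TMM), and the 4 values of a group always run from replicate 1 to replicate 4. A gene is called changed where the adjusted p of edgeR's quasi-likelihood test, by the Benjamini-Hochberg method over all 15259 tested genes, is under 0.05. Fold changes are KO over WT on a log2 scale, with their standard error. Scd1 alone took 6.39% to 7.14% of all counts in KO libraries and 2.03% to 2.66% in WT libraries. Transcripts of the mitochondrial genome took 5.69% to 6.04% in KO libraries and 2.96% to 3.55% in WT libraries. The TMM factors were 0.984 to 1.005 for KO libraries and 1.079 to 1.109 for WT libraries.

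Lpcat3 itself (ENSMUSG00000004270, a protein-coding gene on the plus strand at chr6:124663027-124704418 in GENCODE vM21, GRCm38) was lower but far from absent. It had 50, 47.7, 49.1 and 49.2 CPM in KO libraries, against 69.9, 69.3, 72.9 and 66 CPM in WT libraries. The ranges did not overlap (log2 fold change -0.51 ± 0.061, adjusted p = 5.34e-07). In the deposited TPM, which divide by transcript length, the same gene had 71.2, 70.8, 76.1 and 79.1 TPM in KO libraries, against 68.3, 68.8, 76.5 and 64.4 TPM in WT libraries, and these ranges overlapped. On log2(TPM + 1) the difference was 0.097 with an adjusted p of 0.287 by limma, and after TMM scaling of the TPM it was 0.29 with an adjusted p of 0.00433, opposite in sign to the counts. The count per TPM of Lpcat3, relative to that of the median expressed gene of the library, was 0.497, 0.468, 0.442 and 0.429 in KO libraries, against 0.816, 0.784, 0.777 and 0.814 in WT libraries. In Salmon output this ratio follows the length of the transcripts to which reads were assigned. The remaining counts were therefore assigned to shorter transcripts in KO libraries; which exons they come from was not analysed here. In bulk tissue, fewer cells of a type and less RNA per cell cannot be told apart.

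Most tested genes were not called, and most called changes were under 2-fold. Of 15259 genes, 3206 were higher in KO libraries, which is 21%, and 3365 were lower, which is 22.1%, or 43.1% called either way. The median absolute log2 fold change over all tested genes was 0.18. At least a 2-fold change was reached by 381 called genes that rose and 363 that fell, together 4.88% of the tested genes, and at least a 4-fold change by 93 and 67. The 4 KO and 4 WT libraries did not overlap at all for 5964 genes, or 39.1%. Since so many genes were called, a list with 1 in 5 members higher and 1 in 5 lower is what the whole genome gave.

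The scale of measurement decides how many small changes count as falls. TPM add up to the same total in every library, and in unscaled TPM the median log2 fold change over all genes was -0.16 where the TMM-scaled counts gave 0.001. On that scale 1188 genes were called higher and 6837 lower. Of the genes called from counts, 1165 of the higher and 3268 of the lower had the same call in unscaled TPM, and 61 had the opposite one. Once the TPM were TMM-scaled as well, 2730 were higher and 2955 lower, and 1 gene was called in opposite directions. For the lists below, counts in unscaled TPM are given where they move the share of higher calls by over 10 percentage points, and for some others.

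The KO libraries were checked for muscle and lymph node content. Replicate 1 of KO carried more of the fast muscle genes than any of the other 7 libraries. Myh4, the myosin heavy chain of the fastest muscle fibres, had 115, 12.1, 8.52 and 0.674 CPM in KO libraries, against 0.197, 6.45, 11.4 and 0.65 CPM in WT libraries. Ckm, the creatine kinase of muscle, had 29.3, 3.14, 1.93 and 0.0817 CPM in KO libraries, against 0.0717, 1.83, 3.9 and 0.0591 CPM in WT libraries. Both were lowest in replicate 4 of KO and in replicates 1 and 4 of WT, neither was called (adjusted p = 0.0839 and 0.13), and both were chosen after their values were seen. The 20 muscle markers summed to 547, 129, 108 and 84.5 CPM in KO libraries, against 92.1, 127, 153 and 89.2 CPM in WT libraries, so replicate 1 of KO stood apart and the other 3 KO libraries lay within or just below the WT range.

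Of the 19 muscle markers tested, 5 were called higher and 0 lower, against 2 and 1 in unscaled TPM. Without replicate 1 of KO, 1 was higher and 3 were lower. The count of higher members also went to 8 without KO replicate 3, 13 without KO replicate 4, and 2, 3, 9 and 3 without WT replicates 1, 2, 3 and 4. Myl1, a myosin light chain, behaved otherwise, with 52.7, 46, 41.9 and 40.9 CPM in KO libraries, against 24.3, 28.3, 29.2 and 29.1 CPM in WT libraries. No WT library reached the KO range (log2 fold change 0.71 ± 0.079, adjusted p = 1.92e-07).

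Replicate 2 of KO carried B cell and lymph node genes. Cd79a, a signalling chain of the B cell receptor, had 1.27, 8.4, 0.566 and 1.21 CPM in KO libraries, against 0.502, 0.339, 0.236 and 0.394 CPM in WT libraries. Cr2, the complement receptor of B cells and follicular dendritic cells, had 0.764, 5.52, 0.272 and 0.184 CPM in KO libraries, against 0.143, 0.017, 0.0544 and 0.0985 CPM in WT libraries. The highest value of each was in replicate 2 of KO, several times that of the next library. Ccl21a, a chemokine of lymph node stroma, had 2.34, 12.8, 0.793 and 1.43 CPM in KO libraries, against 1.02, 1.39, 2.03 and 2.38 CPM in WT libraries.

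Cd79a and Cr2 were each called higher, with log2 fold changes of 2.95 and 4.39, and each lost its call without replicate 2 of KO. Their log2 fold changes were then 1.465 and 2.358. For both genes every KO library lay above every WT library, at low levels. Of 14 B cell markers, 7 were higher and 1 lower, against 1 and 1 in unscaled TPM. Without KO replicate 2, 0 were higher, and without WT replicate 1, 2 or 3 the number was 4. The mean log2(CPM + 0.1) of this list was 0.93, 2.873, 0.38 and 0.666 in KO libraries, against 0.128, -0.045, 0.112 and 0.089 in WT libraries. Of 14 T cell markers, 11 were higher and 1 lower, against 7 and 1 in unscaled TPM, and 5 were higher without replicate 2 of KO. The 10 lymph node stroma and vessel genes summed to 20.4, 36.9, 14.3 and 21.3 CPM in KO libraries, against 26.9, 23.9, 25.4 and 18.8 CPM in WT libraries. Their 0 to 3 members at 0 were spread over both genotypes.

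Ighm, the heavy chain of IgM, went the other way from the B cell markers. It had 285, 366, 357 and 393 CPM in KO libraries, against 672, 672, 660.1 and 694 CPM in WT libraries. Every KO library was below every WT library (log2 fold change -0.94 ± 0.12, adjusted p = 1.98e-06). Leaving out replicates 1 and 2 of KO together left 2457 of the 3206 higher calls and 2529 of the 3365 lower ones. Using the mean levels of the muscle and B cell markers as covariates left 2632 and 2708. In both cases 0 genes were called in the opposite direction.

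**Figure D1:**
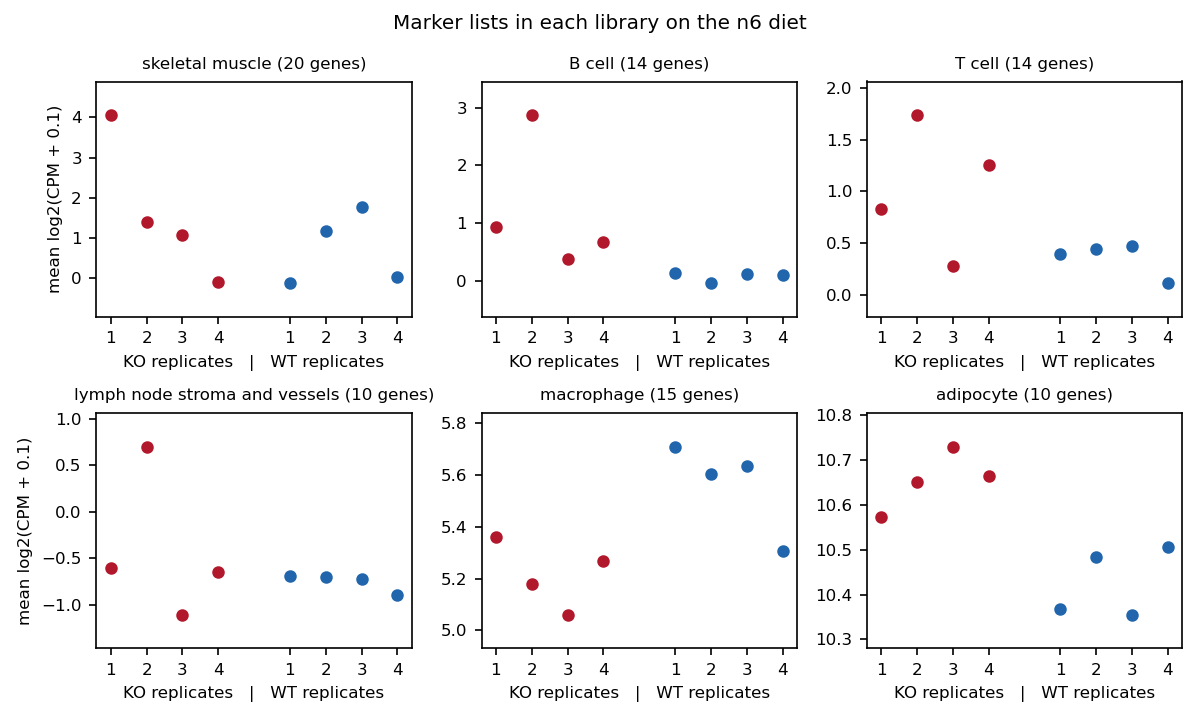
Mean log2(CPM + 0.1) of 6 marker lists in each n6 library, one panel per list, with replicates 1 to 4 of KO (red) left of replicates 1 to 4 of WT (blue). Replicate 1 of KO stands above all others for skeletal muscle and replicate 2 for B cell and lymph node genes, while macrophage markers are higher in WT libraries 1 to 3 and adipocyte markers are higher in all 4 KO libraries.

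Among other cells of the tissue, 10 adipocyte markers summed to 29890 to 32540 CPM in KO libraries and 24580 to 26440 CPM in WT libraries. Much of that gap came from the list members Fabp4 and Acsl1, with means of 12340 and 4449 CPM in KO and 8890 and 2405 CPM in WT libraries. The list's mean log2(CPM + 0.1) was 10.573 to 10.73 in KO and 10.355 to 10.506 in WT libraries. Progenitor markers summed to 2173 to 2353 CPM in KO and 2888 to 2950 CPM in WT libraries, and macrophage markers to 1248 to 1557 CPM in KO and 1514 to 2183 CPM in WT libraries. Endothelial markers summed to 1628 to 1727 CPM in KO and 1298 to 1502 CPM in WT libraries. Of these 10 markers 2 were higher and 0 lower (0 and 1 in unscaled TPM), and 20% called is below the 43.1% of all tested genes. Erythrocyte markers summed to 1350 to 1545 CPM in KO and 927 to 1148 CPM in WT libraries, with 5 of 8 tested members higher and 1 lower (4 and 1 in unscaled TPM). Markers of mammary and skin epithelium summed to 2290 to 2910 CPM in KO and 1317 to 1375 CPM in WT libraries, with 1 of 13 tested members higher and 0 lower. The mean log2(CPM + 0.1) of this epithelial list overlapped, from -1.94 to -0.643 in KO and from -1.912 to -1.099 in WT libraries. Neutrophil markers were scarce and summed to 5.84 to 8.24 CPM in KO and 9.26 to 14.4 CPM in WT libraries, with 2 of 6 tested members higher and 2 lower (1 and 2 in unscaled TPM). No adipocyte, progenitor or endothelial marker was at 0 in any n6 library. Of the 10 adipocyte markers 5 were higher and 1 lower, and 3 were higher without KO replicate 3 or WT replicate 3; in unscaled TPM 3 were higher and 4 lower. Of the 10 progenitor markers 1 was higher and 6 were lower. These differences in summed levels accompany every comparison below, and their part in each was not tested.

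The 15 largest rises and 15 largest falls among well-expressed genes ran from 2.49 to 5.14 and from -4.25 to -2.14 on the log2 scale. They were drawn only from called genes whose KO and WT libraries did not overlap. The lack of overlap given for these genes therefore follows from the rule that chose them. Cxadr, a cell junction protein that doubles as a virus receptor, had 10.7, 10.2, 10.5 and 10.9 CPM in KO libraries, against 1.18, 1.26, 1.18 and 1.64 CPM in WT libraries. Its KO libraries lay within 1 CPM of each other and above every WT library (log2 fold change 3.01 ± 0.20, adjusted p = 1.3e-10). Hephl1, a copper-dependent ferroxidase related to hephaestin, had 46.5, 45.6, 45.2 and 45 CPM in KO libraries, against 6.84, 5.62, 7.64 and 3.29 CPM in WT libraries. The KO values were again nearly equal, and the WT values varied more (log2 fold change 2.96 ± 0.17, adjusted p = 2e-11). Egln3, a prolyl hydroxylase that marks hypoxia-inducible factors for degradation, had 8.54, 7.78, 9.97 and 9.82 CPM in KO libraries, against 1.31, 1.19, 1.47 and 1.2 CPM in WT libraries. Its groups were well apart (log2 fold change 2.80 ± 0.14, adjusted p = 5.01e-13).

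Nabp1, which binds single-stranded DNA, was the most abundant of the large rises. It had 360.3, 385, 234 and 271 CPM in KO libraries, against 41.6, 44.8, 54.3 and 37.3 CPM in WT libraries. Replicates 3 and 4 of KO were lower than replicates 1 and 2 but still over 4 times the highest WT library (log2 fold change 2.81 ± 0.20, adjusted p = 5.8e-10). Parm1, a mucin-like membrane protein, had 127, 125, 142 and 135 CPM in KO libraries, against 18.1, 17.8, 21.3 and 18.9 CPM in WT libraries. Chchd10, a protein of the mitochondrial intermembrane space, had 124, 104, 107 and 119 CPM in KO libraries, against 17.2, 16.5, 19 and 14.4 CPM in WT libraries. Neither gene's ranges came close to overlapping, and they rose by 2.80 ± 0.13 (adjusted p = 2.63e-13) and 2.76 ± 0.12 (adjusted p = 2.05e-13) on the log2 scale.

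Hapln4, a link protein of the hyaluronan matrix known from brain, and Wnt8b, a Wnt ligand, rose at low levels. Hapln4 had 7.26, 6.67, 6.34 and 7.62 CPM in KO libraries, against 1.22, 1.07, 1.38 and 0.788 CPM in WT libraries. Wnt8b had 7.05, 6.33, 8.2 and 9.01 CPM in KO libraries, against 1.27, 1.27, 1.6 and 1.3 CPM in WT libraries. Both were higher in 4 of 4 KO libraries than in any WT library, with log2 fold changes of 2.64 ± 0.16 and 2.49 ± 0.13. Kcnc2, a voltage-gated potassium channel, rose by 2.25 ± 0.11, with 36.5, 36.4, 36.5 and 41.3 CPM in KO libraries, against 6.54, 7.4, 9.2 and 8.55 CPM in WT libraries.

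The largest rise in fold belonged to Tmem56, whose CPM were 19.1, 15.9, 20.6 and 21.6 CPM in KO libraries, against 0.305, 0.305, 0.562 and 1.06 CPM in WT libraries. Prune2 was far more abundant, with 183, 180.1, 179 and 158 CPM in KO libraries, against 16.4, 16.4, 17.9 and 12.6 CPM in WT libraries. Neither gene's KO and WT values overlapped, and their fold changes were 5.14 ± 0.38 and 3.47 ± 0.16. Xirp2, an actin-binding protein of striated muscle, had 15.3, 2.26, 5.94 and 5.11 CPM in KO libraries, against 0.484, 0.967, 1.61 and 0.453 CPM in WT libraries. Its highest value was in replicate 1 of KO, the library with the highest muscle markers; the fold change was 3.02 ± 0.47 with all 8 libraries. Morf4l1-ps1 is a processed pseudogene that can share reads with its parent gene, so its rise is uncertain; it had 27.8, 28.3, 28.9 and 29.7 CPM in KO libraries, against 0, 5.68, 9.42 and 0 CPM in WT libraries. Fitted on the 8 n6 libraries alone it lost its call (log2 fold change 2.91, adjusted p = 0.0573 by edgeR).

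**Figure D2:**
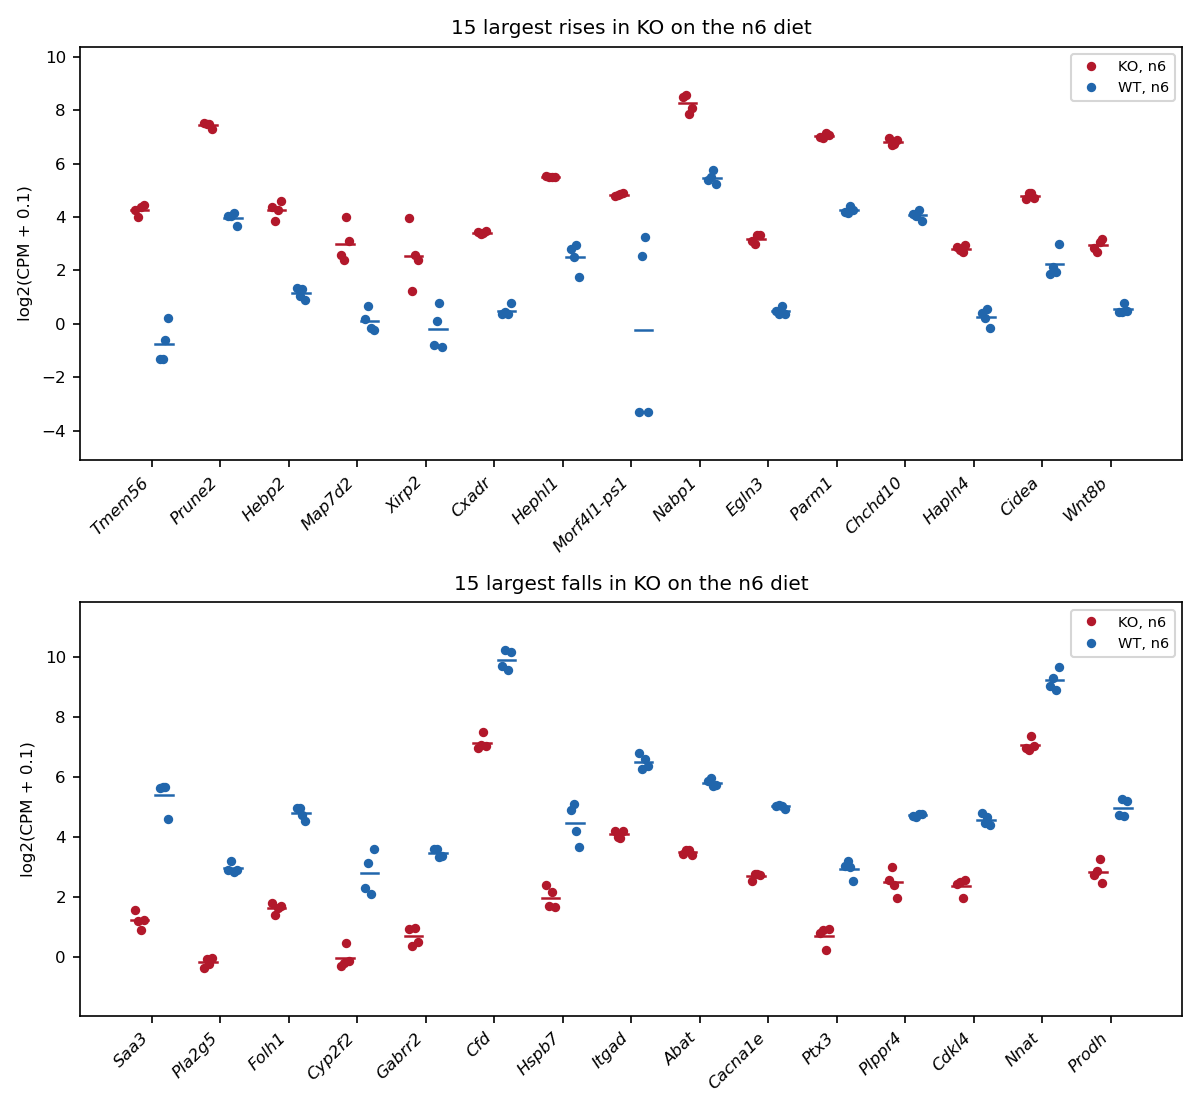
CPM per library, as log2(CPM + 0.1), for the 15 genes with the largest rises (top) and the 15 with the largest falls (bottom) in KO on the n6 diet, taken from called genes whose 8 values average 1 or more as log2 CPM and whose groups do not overlap. KO libraries (red) are drawn left of WT libraries (blue), a line marks each group's mean on this scale, and the groups do not overlap for any gene by the rule that chose them.

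Saa3, an acute-phase protein made by adipose tissue in mice, had 2.87, 2.19, 1.77 and 2.27 CPM in KO libraries, against 49.2, 50.1, 50.8 and 24.1 CPM in WT libraries. Replicate 4 of WT was the lowest of its group and still above every KO library (log2 fold change -4.25 ± 0.23, adjusted p = 5.32e-12). Pla2g5, a secreted phospholipase A2, had 0.68, 0.854, 0.748 and 0.878 CPM in KO libraries, against 7.29, 9.18, 7.08 and 7.29 CPM in WT libraries. Ptx3, a soluble pattern-recognition protein, had 1.64, 1.75, 1.06 and 1.82 CPM in KO libraries, against 8.17, 9.16, 7.88 and 5.64 CPM in WT libraries. Each was several times lower in every KO library, with log2 fold changes of -3.28 ± 0.17 and -2.29 ± 0.22.

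Itgad, the alpha D integrin of macrophages and other leukocytes, had 18.4, 15.9, 15.5 and 18.3 CPM in KO libraries, against 112, 77.5, 96.4 and 81.7 CPM in WT libraries. Every KO library was below every WT library (log2 fold change -2.43 ± 0.15, adjusted p = 3.07e-11), in libraries whose macrophage markers were lower too; their part was not tested. Folh1, a folate hydrolase, had 3.4, 2.52, 3.04 and 3.17 CPM in KO libraries, against 31.4, 31.1, 26.3 and 23 CPM in WT libraries. Its change was -3.20 ± 0.19.

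A pair of enzymes of amino acid breakdown fell together. Abat, which breaks down the transmitter GABA, had 10.8, 11.7, 11.7 and 10.5 CPM in KO libraries, against 57.9, 62.2, 52.1 and 52.5 CPM in WT libraries. Prodh, the first enzyme of proline breakdown, had 6.48, 7.23, 9.58 and 5.47 CPM in KO libraries, against 26.7, 38.1, 25.7 and 36.2 CPM in WT libraries. In both genes the highest KO library was below the lowest WT library (log2 fold change -2.33 ± 0.14, adjusted p = 2.73e-11 for Abat, log2 fold change -2.14 ± 0.17, adjusted p = 2.76e-09 for Prodh).

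Cacna1e, the pore of a voltage-gated calcium channel, had 5.67, 6.76, 6.68 and 6.58 CPM in KO libraries, against 32.5, 33.6, 32.6 and 30.2 CPM in WT libraries. Plppr4, a membrane protein of the lipid phosphatase family, had 5.82, 7.85, 5.21 and 3.84 CPM in KO libraries, against 25.8, 25.4, 27.3 and 26.8 CPM in WT libraries. Cdkl4, a kinase, had 5.31, 5.59, 3.78 and 5.86 CPM in KO libraries, against 27.7, 21.9, 25.2 and 20.8 CPM in WT libraries. Their log2 fold changes were -2.33 ± 0.15, -2.22 ± 0.20 and -2.21 ± 0.13, and none of the 3 had overlapping groups.

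Phospholipid remodelling beyond Lpcat3 moved in both directions. Of 22 genes of the Lands cycle, 7 were higher and 6 lower in KO libraries, with a median log2 fold change of -0.037; in unscaled TPM 3 were higher and 11 lower. Abhd3, a phospholipase that acts on phospholipids with medium-chain and oxidised acyl groups, had 17.2, 17.3, 16 and 19.1 CPM in KO libraries, against 6.68, 7.7, 6.48 and 6.64 CPM in WT libraries. Tmem86a, a lysoplasmalogenase, had 57.8, 52, 51.3 and 61.4 CPM in KO libraries, against 31.2, 27.3, 32.2 and 28.6 CPM in WT libraries. Both rose without overlap (log2 fold change 1.34 ± 0.073, adjusted p = 1.15e-12 for Abhd3, log2 fold change 0.90 ± 0.071, adjusted p = 8.17e-10 for Tmem86a).

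Lpgat1, an acyltransferase of lysophospholipids and the most abundant gene of the list, had 1333, 1456, 1528 and 1327 CPM in KO libraries, against 2132, 2131, 2105 and 1984 CPM in WT libraries. Pla2g15, the lysosomal phospholipase A2, had 35.2, 32.1, 30 and 33.3 CPM in KO libraries, against 57.9, 55.1, 55.3 and 51.4 CPM in WT libraries. Every KO library was below the WT range for each, with log2 fold changes of -0.56 ± 0.066 and -0.75 ± 0.072.

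The synthesis of phosphatidylcholine and phosphatidylethanolamine from choline and ethanolamine leaned upwards, with 7 of 15 members higher and 3 lower by counts, against 4 higher and 7 lower in unscaled TPM. Pcyt2, the rate-setting enzyme of the ethanolamine branch, had 54.5, 55.1, 58.9 and 55.3 CPM in KO libraries, against 31.9, 33.1, 31.9 and 33 CPM in WT libraries. Chpt1, which joins choline to diacylglycerol, had 1524, 1725, 1571 and 1546 CPM in KO libraries, against 1061, 1181, 1139 and 1044 CPM in WT libraries. Both rose, by 0.78 ± 0.051 and 0.53 ± 0.061, with no WT library in the KO range. Phospho1 and Pemt, which methylates phosphatidylethanolamine to phosphatidylcholine, rose by 0.67 ± 0.081 and 0.51 ± 0.088. Selenoi, which joins ethanolamine to diacylglycerol, and Slc44a1, a choline transporter, fell, with log2 fold changes of -0.28 ± 0.041 and -0.29 ± 0.041.

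Most tested genes of lipid synthesis were higher in KO libraries. Of 18 genes of de novo lipogenesis, 15 were higher and 0 lower, with a median log2 fold change of 1.62. Of 24 genes of cholesterol synthesis, 18 were higher and 1 was lower, with a median of 0.87. In unscaled TPM the counts were 15 and 1 for lipogenesis and 17 and 2 for cholesterol synthesis.

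Acss2, which turns acetate into acetyl-CoA, changed most within lipogenesis. It had 581, 640.2, 636 and 558 CPM in KO libraries, against 119, 114, 125 and 111 CPM in WT libraries. Acacb, the acetyl-CoA carboxylase at the mitochondrial surface, had 393, 379, 425 and 361 CPM in KO libraries, against 81.9, 86.5, 81 and 76 CPM in WT libraries. For both genes the KO libraries held over 4 times the WT level (log2 fold change 2.37 ± 0.083, adjusted p = 2.25e-15 for Acss2, log2 fold change 2.26 ± 0.085, adjusted p = 1.01e-14 for Acacb). Fasn, the fatty acid synthase, had 7760, 7944, 7839 and 7176 CPM in KO libraries, against 2138, 2131, 2202 and 2305 CPM in WT libraries. Its change of 1.81 ± 0.075 is given although the gene was picked after its values were seen.

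Slc25a1, which exports citrate from mitochondria, had 1015, 985, 1064 and 1105 CPM in KO libraries, against 285, 266, 301 and 282 CPM in WT libraries. Me1, the malic enzyme that yields NADPH for synthesis, had 2225, 2405, 2340 and 2194 CPM in KO libraries, against 686, 662, 707 and 647 CPM in WT libraries. Scd1, the desaturase that makes oleate, had 67700, 71920, 64990 and 66800 CPM in KO libraries, against 18600, 24600, 18300 and 21030 CPM in WT libraries. Scd2, its close relative, had 2438, 2588, 2439 and 2232 CPM in KO libraries, against 739.9, 722, 746 and 678 CPM in WT libraries. The 4 genes rose by similar amounts, with log2 fold changes of 1.88 ± 0.082, 1.76 ± 0.071, 1.72 ± 0.079 and 1.75 ± 0.068, and none had overlapping groups.

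The called sterol synthesis genes rose by different amounts. Fdps, which makes farnesyl pyrophosphate, had 116, 118, 116 and 116 CPM in KO libraries, against 39, 37.8, 39.7 and 37.2 CPM in WT libraries. Lss, which closes the sterol rings, had 166, 173, 174 and 164 CPM in KO libraries, against 57.7, 54.7, 60.5 and 52.5 CPM in WT libraries. The rise was near 3-fold in each (log2 fold change 1.60 ± 0.066, adjusted p = 1.7e-14 for Fdps, log2 fold change 1.59 ± 0.075, adjusted p = 1.43e-13 for Lss). Hmgcs1, which feeds the pathway, had 807, 829.9, 927 and 834 CPM in KO libraries, against 526, 465, 518 and 522 CPM in WT libraries, a log2 fold change of 0.74 ± 0.065.

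**Figure D3:**
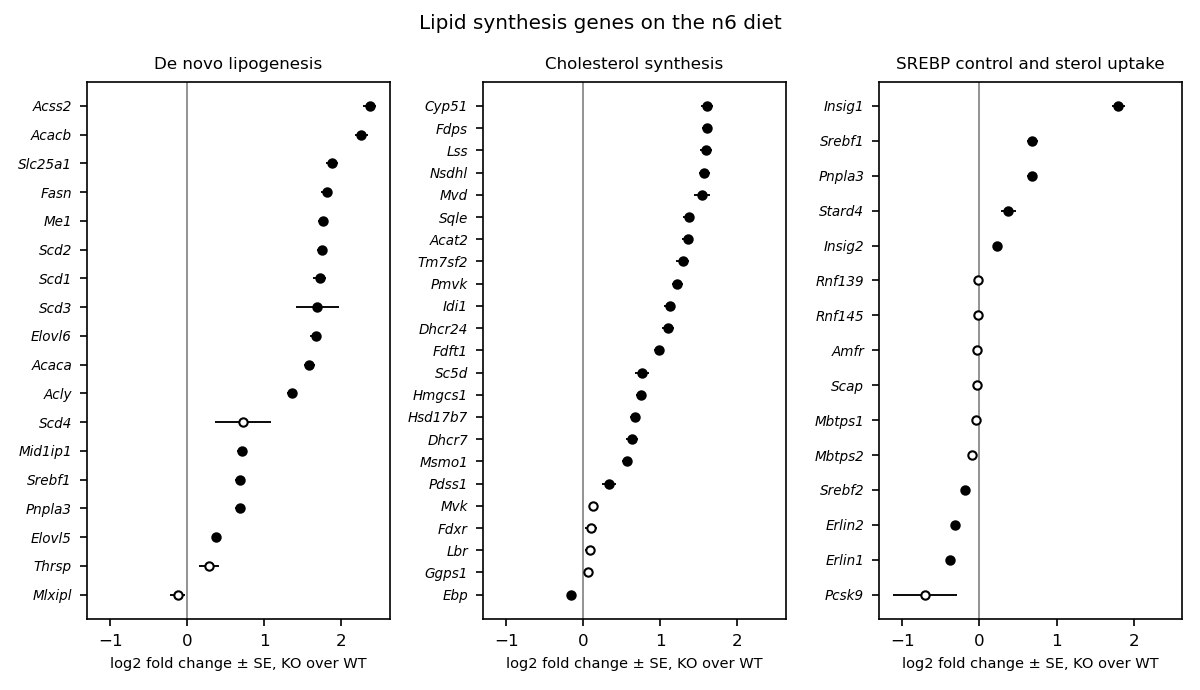
Log2 fold change of KO over WT on the n6 diet, with its standard error as a bar, for tested genes of de novo lipogenesis, cholesterol synthesis and SREBP control with sterol uptake. Filled points were called and open points were not; lipogenesis holds 15 filled points, all to the right of 0, while Scap and both site proteases sit near 0 and were not called.

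The genes that control SREBP were called in both directions. Of 16 genes of SREBP control and sterol uptake, 6 were higher and 3 lower by counts, against 4 higher and 9 lower in unscaled TPM. Insig1, which holds SREBP in the endoplasmic reticulum and is itself a target of it, had 876, 818, 867 and 883 CPM in KO libraries, against 228, 244, 281 and 235 CPM in WT libraries. Srebf1, which encodes the SREBP that drives lipogenesis, had 289.5, 284, 317 and 312 CPM in KO libraries, against 184, 177, 178 and 209 CPM in WT libraries. Srebf2, which encodes the one that drives sterol synthesis, had 44.5, 43.4, 44.5 and 39.8 CPM in KO libraries, against 48.5, 47.1, 50 and 50.4 CPM in WT libraries. Insig1 rose by 1.80 ± 0.087 and Srebf1 by 0.69 ± 0.070, while Srebf2 fell slightly, by -0.19 ± 0.046 on the log2 scale.

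Stard4, a sterol carrier, and Insig2 rose by 0.38 ± 0.093 and 0.23 ± 0.050 on counts and were not called in unscaled TPM (adjusted p = 0.323 and 0.753 by limma). Scap, the escort of SREBP, had 48.1, 49.9, 48.4 and 48.3 CPM in KO libraries, against 49, 50, 48.3 and 52.6 CPM in WT libraries, and was not called (adjusted p = 0.447).

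The oxysterol receptor LXR induces Lpcat3 and Srebf1 in mouse tissues. Of 10 genes of LXR and its targets, 2 were higher, 2 lower and 6 not called, so that 40% were called, near the 43.1% of all tested genes, with 0 higher and 4 lower in unscaled TPM. Mylip, a ubiquitin ligase, rose by 0.34 ± 0.087, and Nr1h3, which encodes LXR alpha, by 0.20 ± 0.047; in unscaled TPM neither was called. Abca1, the cholesterol exporter, had 435, 443, 403 and 423 CPM in KO libraries, against 452, 449.7, 471 and 436 CPM in WT libraries, and was not called (adjusted p = 0.0872).

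The promoters of 3 genes of these lists are printed because sterol and lipogenic genes share known promoter elements. Only genes holding a motif that was searched for could be chosen. The sequences are the 250 bases before the gene's start in RefSeq on GRCm38.p6, read 5′ to 3′ on the gene's strand, and capitals mark the letters TCACNCCAC, a form of the sterol regulatory element, or CCAAT, the box bound by NF-Y, on either strand (ATTGG on the reverse).
Acss2, chr2:155517793-155518042, plus strand: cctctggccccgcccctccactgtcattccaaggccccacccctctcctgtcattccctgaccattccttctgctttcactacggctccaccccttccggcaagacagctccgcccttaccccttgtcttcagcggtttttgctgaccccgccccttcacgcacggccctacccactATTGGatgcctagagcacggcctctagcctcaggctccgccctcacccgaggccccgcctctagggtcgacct
Fasn, chr11:120824548-120824797, minus strand: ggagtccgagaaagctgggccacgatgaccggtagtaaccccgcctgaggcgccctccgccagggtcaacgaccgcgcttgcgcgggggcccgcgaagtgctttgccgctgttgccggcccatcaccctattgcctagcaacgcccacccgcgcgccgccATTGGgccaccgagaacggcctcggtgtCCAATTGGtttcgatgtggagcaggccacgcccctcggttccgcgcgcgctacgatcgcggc
Hmgcs1, chr13:119690101-119690350, plus strand: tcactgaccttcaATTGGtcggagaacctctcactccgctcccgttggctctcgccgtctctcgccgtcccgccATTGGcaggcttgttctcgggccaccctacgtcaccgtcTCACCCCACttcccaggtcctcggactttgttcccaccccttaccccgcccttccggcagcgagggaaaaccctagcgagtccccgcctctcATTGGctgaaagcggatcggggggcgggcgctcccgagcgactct
Acss2, the most changed of the 3, holds 1 CCAAT box in this window and no TCACNCCAC. Fasn holds 3 CCAAT boxes, of which a pair overlap on opposite strands. Hmgcs1 holds TCACNCCAC with its first base at -137 and 3 CCAAT boxes.

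Motifs were counted in 300 bases, from 250 before to 50 after the start, and 11504 of the 15259 tested genes had a promoter in the table. CCAAT was present in 17 of the 19 promoters found for cholesterol synthesis genes (89.5%) and in 11 of 16 for lipogenesis (68.8%), against 11096 of 27025 genes in the whole table (41.1%). TCACNCCAC was present in 1 of 19 and in 1 of 16, against 1.44% of all genes. Taken per promoter, 37.4% of 32851 held CCAAT and 1.24% held TCACNCCAC. Among tested genes with a promoter 42.6% held CCAAT, beside 42.8% of those called higher and 42.1% of those called lower. These are matches of letters, and no binding was measured.

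Desaturation and elongation of polyunsaturated fatty acids did not move as a block. Of 13 genes, 5 were higher and 2 lower, against 4 and 4 in unscaled TPM. Hsd17b12 and Tecr, the reductases shared by every elongation cycle, rose the most. Hsd17b12 had 496, 521, 527 and 511 CPM in KO libraries, against 188, 188, 197 and 177 CPM in WT libraries. Tecr had 272, 269, 261 and 276 CPM in KO libraries, against 110.4, 108, 104 and 105 CPM in WT libraries. Both rose by more than 2-fold (log2 fold change 1.46 ± 0.070, adjusted p = 1.62e-13 for Hsd17b12, log2 fold change 1.34 ± 0.056, adjusted p = 1.82e-14 for Tecr).

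The front-end desaturases, which make long polyunsaturated fatty acids from linoleate, moved apart. Fads1 had 29.1, 29.9, 32.9 and 29.7 CPM in KO libraries, against 38.4, 45.1, 38.5 and 39.6 CPM in WT libraries. Fads2 had 17.2, 15.8, 14.9 and 16.6 CPM in KO libraries, against 9.1, 9.52, 10.8 and 11.9 CPM in WT libraries. Fads1 fell by -0.41 ± 0.082 on the log2 scale and Fads2 rose by 0.64 ± 0.090, each with no overlap. Elovl5, an elongase of polyunsaturated fatty acids, rose by 0.37 ± 0.047.

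Genes that supply reducing power and carbon for synthesis were mostly higher. Of 11 genes of NADPH supply, 8 were higher and 1 lower (6 and 3 in unscaled TPM). G6pdx, the first enzyme of the pentose phosphate pathway, had 398, 414, 378 and 379 CPM in KO libraries, against 275, 274, 273 and 239 CPM in WT libraries. Pgd and Taldo1, further along the same pathway, rose by 0.47 ± 0.057 and 0.53 ± 0.057. G6pdx rose by 0.56 ± 0.059, with no WT library near the KO range.

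Of 10 genes that carry pyruvate, citrate and related acids across the mitochondrial membrane, 7 were higher and 1 lower (7 and 2 in unscaled TPM). Mpc1 and Mpc2, the subunits of the pyruvate carrier, rose together. Mpc1 had 219, 226, 223 and 216 CPM in KO libraries, against 133, 143, 135 and 145 CPM in WT libraries. Mpc2 had 152, 152, 156 and 158 CPM in KO libraries, against 98.2, 100.4, 98 and 103 CPM in WT libraries. Slc25a10, the dicarboxylate carrier, had 484, 507, 500.5 and 495 CPM in KO libraries, against 260.5, 248, 264 and 264 CPM in WT libraries. The log2 fold changes were 0.67 ± 0.072, 0.63 ± 0.067 and 0.94 ± 0.068, while Slc25a13, a scarce aspartate and glutamate carrier, fell (-0.84 ± 0.23).

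Glycolysis had 11 of 19 genes higher and 2 lower, and 9 and 6 in unscaled TPM. Aldoa, its abundant aldolase, had 1570, 1713, 1601 and 1535 CPM in KO libraries, against 1021, 1032, 1074 and 1032 CPM in WT libraries, a change of 0.63 ± 0.070. Pfkm, a phosphofructokinase, rose by 0.52 ± 0.062, and Ldhb, the lactate dehydrogenase subunit of oxidative tissues, fell, by -0.62 ± 0.10 on the log2 scale. Of 26 genes of insulin signalling and glucose uptake, 11 were higher and 5 lower by counts, and 9 higher and 11 lower in unscaled TPM. Gys2, the glycogen synthase known from liver, had 79.7, 95.5, 87.5 and 82.8 CPM in KO libraries, against 32.1, 29, 35.4 and 32 CPM in WT libraries. It rose by 1.43 ± 0.11. Pik3cb, a catalytic subunit of phosphoinositide 3-kinase, and Grb14, an inhibitor of the insulin receptor, rose by 0.80 ± 0.092 and 0.69 ± 0.074. Of 8 genes of ChREBP and fructose use, 3 were higher and 1 lower (0 and 3 in unscaled TPM). The 50% called is near the 43.1% of all tested genes.

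Fatty acid uptake and activation had 9 of 17 genes higher and 2 lower, and 7 and 7 in unscaled TPM. Acsl3, an acyl-CoA synthetase of nascent lipid droplets, had 49.5, 46.2, 49.5 and 51.4 CPM in KO libraries, against 12.9, 13.5, 13.2 and 12.9 CPM in WT libraries. Slc27a1, a fatty acid transporter, had 765, 821, 806 and 818 CPM in KO libraries, against 332, 369.9, 349.8 and 372 CPM in WT libraries. Fabp4, the fatty acid binding protein of adipocytes, had 11860, 12500, 12380 and 12620 CPM in KO libraries, against 8607, 9479, 8736 and 8738 CPM in WT libraries. Each rose without overlap, by 1.91 ± 0.085, 1.17 ± 0.10 and 0.47 ± 0.072. Acsl1, the main synthetase of adipocytes, rose by 0.89 ± 0.065. Lrp1, a lipoprotein receptor, and Acsl5 fell, with log2 fold changes of -0.55 ± 0.063 and -0.42 ± 0.047.

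Lipid droplet proteins had 8 of 17 higher and 2 lower, and 6 and 6 in unscaled TPM. Plin5, a droplet coat of oxidative tissues, had 29.2, 32.3, 40.4 and 31 CPM in KO libraries, against 11.1, 9.57, 9.76 and 12.5 CPM in WT libraries. Plin2, the coat of many cell types, had 999, 987, 984 and 975 CPM in KO libraries, against 613, 559, 605 and 500.1 CPM in WT libraries. Cidea, which fuses droplets and marks brown fat, had 25.8, 29.8, 29.5 and 26.5 CPM in KO libraries, against 3.58, 4.28, 3.7 and 7.78 CPM in WT libraries. Replicate 4 of WT held the most Cidea of its group and lay far below every KO library. The log2 fold changes were 1.63 ± 0.13, 0.79 ± 0.072 and 2.54 ± 0.21.

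Lipolysis and its hormonal control had 15 of 23 genes higher and 2 lower, and 9 and 6 in unscaled TPM. Adrb3, the beta receptor of adipocytes, had 258, 297, 212 and 182 CPM in KO libraries, against 93.3, 95.9, 96.5 and 115 CPM in WT libraries. It was higher in 4 of 4 KO libraries and spread widely among them (log2 fold change 1.24 ± 0.13, adjusted p = 7.19e-08). Prkaca, the catalytic subunit of protein kinase A, had 279, 281, 289 and 288 CPM in KO libraries, against 169.5, 167, 161 and 174 CPM in WT libraries. Hcar2, a receptor that restrains lipolysis, had 33.2, 33.9, 30.4 and 34.2 CPM in KO libraries, against 17.2, 16.4, 17.6 and 18.2 CPM in WT libraries. They rose by 0.76 ± 0.052 and 0.93 ± 0.093. Npr3, the clearance receptor for natriuretic peptides, fell (-0.43 ± 0.069), with 1814, 1835, 1791 and 1764 CPM in KO libraries, against 2392, 2550, 2393 and 2403 CPM in WT libraries.

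Transcription factors of adipocytes had 9 of 16 higher and 2 lower, and 5 and 5 in unscaled TPM. Esrrg, a receptor that drives oxidative genes, had 8.73, 6.35, 10.8 and 9.76 CPM in KO libraries, against 3.85, 2.94, 3.07 and 3.41 CPM in WT libraries. Ppara, the fatty acid sensor of oxidative tissues, had 7.39, 6.86, 10 and 8.95 CPM in KO libraries, against 4.37, 5.09, 4.64 and 5.3 CPM in WT libraries. Ppargc1a, its coactivator, had 8.83, 8.75, 7.18 and 7.46 CPM in KO libraries, against 3.76, 5.06, 4.28 and 6.21 CPM in WT libraries. The 3 rose by 1.43 ± 0.21, 0.78 ± 0.12 and 0.74 ± 0.14 without overlap, and Cebpb rose by 0.63 ± 0.085. Klf15 fell by -0.52 ± 0.14 on the log2 scale with overlapping groups, and lost its call without replicates 1 and 2 of KO.

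Secreted factors split, with 6 of 20 higher and 9 lower (3 and 11 in unscaled TPM). Lep, which encodes leptin, had 2610, 2479, 2883 and 2613 CPM in KO libraries, against 5333, 5297, 5112 and 4807 CPM in WT libraries. It fell by nearly 2-fold with no overlap (log2 fold change -0.96 ± 0.077, adjusted p = 9.19e-10). Sfrp5, a secreted Wnt inhibitor, had 138, 115, 156 and 173 CPM in KO libraries, against 346, 308, 295 and 289.5 CPM in WT libraries. Rbp4, the retinol carrier of plasma, had 327, 348, 351 and 321 CPM in KO libraries, against 139, 149, 138 and 136 CPM in WT libraries. Sfrp5 fell and Rbp4 rose (-1.09 ± 0.14 and 1.26 ± 0.082). Retn, which encodes resistin, rose by 0.60 ± 0.084, and Nrg4, a ligand secreted by brown fat, by 0.64 ± 0.098.

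Of 16 imprinted genes, 1 was higher and 8 were lower (0 and 12 in unscaled TPM). Nnat, an imprinted membrane protein of the endoplasmic reticulum, had 125, 119, 166 and 130.4 CPM in KO libraries, against 516, 632, 478 and 801 CPM in WT libraries. It fell by over 4-fold (log2 fold change -2.17 ± 0.35, adjusted p = 5.09e-05). Plagl1 and Grb10 fell by -0.60 ± 0.095 and -0.49 ± 0.071 on the log2 scale. Mest, which tracks the expansion of adipose tissue, had 838, 741, 1055 and 1009 CPM in KO libraries, against 1282, 1068, 1139 and 1153 CPM in WT libraries; its ranges came close without overlap (log2 fold change -0.35 ± 0.11, adjusted p = 0.00997), and the call was lost without replicates 1 and 2 of KO. Zrsr1 was the 1 that rose (0.23 ± 0.054), and it was not called in unscaled TPM.

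Most genes of the mitochondrial lists were called higher on the scale of counts, with small medians. Of 16 mitochondrial transcription and translation factors, 13 were higher and 0 lower with a median of 0.22, and of 20 genes of mitochondrial fusion, fission and import, 16 were higher and 0 lower with a median of 0.22. In unscaled TPM both medians were at 0.011 and 0.014, against -0.16 for all genes, with 2 higher and 2 lower in the first list and 4 and 4 in the second. Without KO replicates 1 and 2, 8 of the transcription and translation factors were higher. Lrpprc, which stabilises mitochondrial messenger RNA, had 67.2, 70, 68.9 and 63.5 CPM in KO libraries, against 48.7, 47.5, 45.4 and 46.9 CPM in WT libraries. Hspa9, the chaperone that pulls proteins into the matrix, had 442, 447, 456 and 429 CPM in KO libraries, against 324, 341, 321 and 336 CPM in WT libraries. These rose by 0.52 ± 0.044 and 0.42 ± 0.046, and Gfm1 and Timm44 by 0.40 ± 0.046 and 0.52 ± 0.051.

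Peroxisomes had 20 of 29 genes higher and 3 lower, and 14 and 7 in unscaled TPM. Cat, which encodes catalase, had 1449, 1532, 1587 and 1560 CPM in KO libraries, against 789, 849, 810.4 and 797 CPM in WT libraries. It rose by nearly 2-fold, without overlap (log2 fold change 0.92 ± 0.058, adjusted p = 1.85e-11). Pex13, a protein import factor, rose by 0.66 ± 0.051. Pxmp2, a channel of the peroxisomal membrane, fell instead (log2 fold change -1.24 ± 0.13, adjusted p = 8.8e-08), with 7.05, 8.27, 8.65 and 6.35 CPM in KO libraries, against 16.2, 19.4, 15.2 and 21 CPM in WT libraries.

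Breakdown of branched-chain amino acids had 13 of 23 genes higher and 3 lower, and 7 and 8 in unscaled TPM. Bckdhb, a subunit of the dehydrogenase that commits them to breakdown, had 93.5, 95.9, 99.3 and 95.2 CPM in KO libraries, against 41, 44.1, 43.2 and 49.1 CPM in WT libraries. Slc25a44, which brings them into mitochondria, had 92.2, 95.4, 99.7 and 90.5 CPM in KO libraries, against 51.6, 57.3, 52.2 and 57.8 CPM in WT libraries. Ppm1k, the phosphatase that activates the dehydrogenase, had 14, 13.6, 13.8 and 11.4 CPM in KO libraries, against 14.8, 19.6, 16.6 and 18.1 CPM in WT libraries. The first 2 rose (1.11 ± 0.061 and 0.79 ± 0.046) and Ppm1k fell (-0.39 ± 0.085).

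Genes of brown fat and of futile cycles had 12 of 20 higher and 3 lower, with a median of 0.78. Without KO replicates 1 and 2 the counts were 10 and 3 and the median 0.48, with the muscle and B cell covariates 10 and 4 and 0.54, and in unscaled TPM 11 and 5 and 0.45. Cox8b, a respiratory subunit of brown fat and muscle, had 18.5, 20.7, 15.4 and 16.1 CPM in KO libraries, against 4.21, 4, 4.12 and 5.12 CPM in WT libraries. No WT library came near the KO range (log2 fold change 2.02 ± 0.18, adjusted p = 1.21e-08). The members that fell included Gamt and Ckb. Gamt, which completes creatine synthesis, had 17.4, 18, 17.1 and 17.4 CPM in KO libraries, against 28.5, 27.6, 25.6 and 28.3 CPM in WT libraries, and Ckb, the brain-type creatine kinase, fell by -0.52 ± 0.080 on the log2 scale. Gamt fell by -0.66 ± 0.062.

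Of 25 genes of the unfolded protein response, 4 were higher and 16 lower (1 and 21 in unscaled TPM). Sdf2l1, a chaperone partner of the endoplasmic reticulum, had 10, 7.07, 6.64 and 7.52 CPM in KO libraries, against 16.2, 15.7, 14.4 and 12 CPM in WT libraries. Pdia4, a disulfide isomerase, had 70.7, 62.5, 59.8 and 59.7 CPM in KO libraries, against 87, 90.2, 88.3 and 84.3 CPM in WT libraries. Both fell without overlap (-0.90 ± 0.11 and -0.47 ± 0.050). Dnajb9, a co-chaperone, rose by 0.29 ± 0.051 on counts and was not called in unscaled TPM.

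The integrated stress response, which induces amino acid synthesis, had 4 of 23 genes higher and 10 lower (2 and 15 in unscaled TPM). Phgdh, the first enzyme of serine synthesis, had 121, 138, 125 and 119 CPM in KO libraries, against 245, 258, 236 and 253 CPM in WT libraries. Stc2, a secreted glycoprotein, had 6.48, 9.35, 9.61 and 9.95 CPM in KO libraries, against 20.7, 25.3, 18.6 and 22 CPM in WT libraries. Asns, the asparagine synthetase, had 44.2, 47.6, 50.7 and 45.7 CPM in KO libraries, against 29.4, 30.3, 28.4 and 30.8 CPM in WT libraries. Phgdh and Stc2 fell (-0.98 ± 0.094 and -1.29 ± 0.14) while Asns rose (0.66 ± 0.071). Chac1, a glutathione-degrading enzyme, rose by 0.56 ± 0.12.

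Antioxidant and ferroptosis genes split evenly, with 8 of 26 higher and 9 lower, and 3 and 17 in unscaled TPM. Gsta4, a transferase that clears the aldehydes of peroxidised lipid, had 30.6, 34.5, 33.3 and 31.5 CPM in KO libraries, against 14.5, 7.14, 4.61 and 9.62 CPM in WT libraries. The WT libraries varied 3-fold among themselves and stayed below the KO range (log2 fold change 1.86 ± 0.33, adjusted p = 0.000108). Gsta3 rose by 1.04 ± 0.10. Gpx3, the glutathione peroxidase of plasma, had 106, 94.1, 98.3 and 95.2 CPM in KO libraries, against 169, 199, 155 and 149 CPM in WT libraries. It fell by -0.77 ± 0.083, and Ftl1, a ferritin light chain, by -0.45 ± 0.070. Ftl1 has near-identical copies in the genome, so its counts are uncertain.

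Eicosanoids are made from the omega-6 fatty acid arachidonate, which phospholipases release from membranes. Of 26 genes that make or clear them, 8 were higher and 9 lower, and 6 and 18 in unscaled TPM; under 2 other scalings of the counts 8 were higher and 7 lower. Ephx2, which hydrolyses epoxides of arachidonate, had 473, 535, 475 and 515 CPM in KO libraries, against 182, 205, 213 and 180.2 CPM in WT libraries. Alox5ap, which hands arachidonate to the leukotriene pathway, had 17.1, 14.3, 12.4 and 17.9 CPM in KO libraries, against 32, 28.2, 27.5 and 23.3 CPM in WT libraries. Ptges, which makes prostaglandin E2, had 17.9, 21.9, 12.7 and 16.2 CPM in KO libraries, against 27.8, 28.6, 31.3 and 25.1 CPM in WT libraries. Ephx2 rose by 1.35 ± 0.11, whereas Alox5ap and Ptges fell by -0.85 ± 0.12 and -0.71 ± 0.15 on the log2 scale. Hpgd, which inactivates prostaglandins, rose by 0.40 ± 0.063, and Cyp4b1 by 0.55 ± 0.085.

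Of 12 receptors for eicosanoids and related lipids, 4 were higher and 2 lower (3 and 3 in unscaled TPM). The 50% called is near the 43.1% of all tested genes. Ptger3, a prostaglandin E2 receptor that lowers cyclic AMP in adipocytes, had 433, 417, 448 and 415 CPM in KO libraries, against 161, 134, 147 and 132 CPM in WT libraries. Ptgfr, the receptor for prostaglandin F2 alpha, had 22.1, 22.4, 19.2 and 23.3 CPM in KO libraries, against 7.01, 7.64, 8.31 and 7.49 CPM in WT libraries. Both rose about 3-fold with no overlap (log2 fold change 1.58 ± 0.063, adjusted p = 1.34e-14 for Ptger3, log2 fold change 1.52 ± 0.10, adjusted p = 6.22e-11 for Ptgfr). Ltb4r1, the leukotriene B4 receptor of leukocytes, was scarce and fell, with 0.51, 0.97, 0.657 and 0.551 CPM in KO libraries, against 2.24, 2.24, 2.12 and 1.66 CPM in WT libraries, a change of -1.62 ± 0.23. Ffar4, a receptor for long-chain fatty acids, rose by 0.45 ± 0.14, was not called in unscaled TPM and lost its call without replicates 1 and 2 of KO.

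Retinoid genes had 3 of 14 higher and 4 lower (3 and 9 in unscaled TPM), so 50% were called, near the 43.1% of all tested genes. Aldh1a1, which makes retinoic acid, had 112, 113, 124 and 96.3 CPM in KO libraries, against 247, 277, 226 and 249 CPM in WT libraries. Aldh1a2, its scarcer relative, had 2.7, 3.51, 2.38 and 3.08 CPM in KO libraries, against 11.4, 9.6, 10.5 and 8.04 CPM in WT libraries. Both fell without overlap (-1.17 ± 0.11 and -1.76 ± 0.17). Xenobiotic and steroid genes had 6 of 18 higher and 3 lower (6 and 5 in unscaled TPM), again 50% called. Cyp2b10, a drug-metabolising P450 of mouse liver, had 3.1, 3.53, 4.55 and 2.53 CPM in KO libraries, against 0.968, 0.815, 1.22 and 1.1 CPM in WT libraries, a change of 1.74 ± 0.21. Hsd11b1, which regenerates active glucocorticoid, fell by -0.71 ± 0.10.

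Sphingolipid genes had 5 of 26 higher and 12 lower (1 and 19 in unscaled TPM), and 2 were higher without replicate 3 of KO. Smpd3, the neutral sphingomyelinase, had 19, 27.3, 19 and 18.4 CPM in KO libraries, against 42.9, 37.8, 48.1 and 32.1 CPM in WT libraries. It fell by -0.95 ± 0.17. Cers6, a ceramide synthase, fell by -0.47 ± 0.065, and Sgms1, which makes sphingomyelin, rose by 0.47 ± 0.076.

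Most lysosomal and macrophage genes were called lower. Of 24 lysosomal genes, 19 were lower and 3 higher. Ctsa, a protective lysosomal protease, had 93.5, 82, 88.8 and 97.4 CPM in KO libraries, against 140, 135, 133 and 121 CPM in WT libraries. A pair of abundant members rose: Npc2, the soluble sterol carrier of lysosomes, had 909, 869, 875 and 906 CPM in KO libraries, against 622, 597, 611 and 517 CPM in WT libraries, and Ctsd, an aspartyl protease, had 2150, 1993, 2108 and 2264 CPM in KO libraries, against 1704, 1662, 1692 and 1477 CPM in WT libraries. The log2 fold changes were -0.55 ± 0.057, 0.60 ± 0.064 and 0.38 ± 0.059.

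Of 14 macrophage markers, 10 were lower and 1 was higher, and of 10 markers of lipid-associated macrophages 9 were lower and 0 higher, with medians of -0.40 and -0.89. Lyz2, the lysozyme of myeloid cells, had 374, 314, 249.5 and 353 CPM in KO libraries, against 645, 579, 602 and 436 CPM in WT libraries. Gpnmb, a glycoprotein of lipid-laden macrophages, had 102, 55.4, 73 and 110.5 CPM in KO libraries, against 251, 193, 217 and 128 CPM in WT libraries. Itgax, the integrin CD11c, had 20.4, 14.4, 17.3 and 25.9 CPM in KO libraries, against 53.1, 40.2, 46.5 and 32.6 CPM in WT libraries. Each was lowest in the KO libraries, and replicate 4 of WT lay nearest to them (-0.81 ± 0.12, -1.21 ± 0.22 and -1.14 ± 0.14).

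Trem2, a lipid receptor of the same cells, had 13.4, 6.4, 9.74 and 16.7 CPM in KO libraries, against 29.6, 22.9, 26.1 and 16.2 CPM in WT libraries. Replicate 4 of KO lay just above replicate 4 of WT, so the groups overlapped (log2 fold change -1.03 ± 0.23, adjusted p = 0.00117). Marco, a scavenger receptor, was the 1 macrophage marker that rose (0.69 ± 0.15). The part of macrophage content in the fall of lysosomal genes was not tested.

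Signalling by TGF-beta and fibrosis genes had 3 of 20 higher and 13 lower (1 and 14 in unscaled TPM). Acta2, the actin of smooth muscle and myofibroblasts, had 88.2, 79.7, 85.5 and 76.5 CPM in KO libraries, against 186, 195, 192 and 164 CPM in WT libraries. Fn1, which encodes fibronectin, had 696, 697, 629 and 536 CPM in KO libraries, against 1256, 1037, 1188 and 973 CPM in WT libraries. Both fell without overlap (-1.16 ± 0.11 and -0.80 ± 0.16), as did Tgfb3 (-0.83 ± 0.064), while Smad3 rose (0.42 ± 0.070). Progenitor markers were lower in the same libraries, as given above.

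Cell division genes had 16 of 20 lower and 0 higher, with a median of -0.47, and 11 were lower without KO replicates 1 and 2. Aurkb, a mitotic kinase, had 2.78, 3.76, 3.24 and 3.17 CPM in KO libraries, against 5.79, 5.72, 5.68 and 5.03 CPM in WT libraries. It fell by -0.78 ± 0.15 on the log2 scale.

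Of 25 interferon response genes, 17 were higher and 0 lower with a median of 0.45, and in unscaled TPM 7 were higher. Rsad2, the antiviral protein viperin, had 42.4, 38.4, 36.9 and 47.5 CPM in KO libraries, against 19.1, 19, 21.2 and 22.5 CPM in WT libraries. Ifit3, an interferon-induced protein, had 41.6, 44.6, 29.9 and 41.2 CPM in KO libraries, against 19.5, 21.2, 21.7 and 24.3 CPM in WT libraries. Each rose without overlap (1.01 ± 0.19 and 0.86 ± 0.15). Without KO replicates 1 and 2, 7 were higher with a median of 0.28, and with the muscle and B cell covariates 10 were higher. T cell markers summed to 20.6 to 57.4 CPM in KO and 22.9 to 37.5 CPM in WT libraries. Their mean log2(CPM + 0.1) was 0.28 to 1.737 in KO and 0.11 to 0.469 in WT libraries. By that mean, replicates 1, 2 and 4 of KO lay above every WT library and replicate 3 of KO lay within the WT range. The part of T cell content in the rise of interferon response genes was not tested.

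Hypoxia and angiogenesis genes had 7 of 17 higher and 4 lower (4 and 6 in unscaled TPM), with Pdk1, a kinase that shuts pyruvate dehydrogenase, up by 0.47 ± 0.041. Kdr, the main receptor for vascular endothelial growth factor, rose by 0.49 ± 0.13 on counts and was not called in unscaled TPM. Heat shock genes had 8 of 18 higher and 3 lower (1 and 7 in unscaled TPM), and 5 were higher without KO replicate 1 or 2 or WT replicate 1 or 4. Hspb8 rose by 0.80 ± 0.059 and Cryab fell by -0.87 ± 0.072 on the log2 scale, both small heat shock proteins. Of 19 circadian clock genes, 4 were higher, 2 lower and 13 not called (2 higher and 3 lower in unscaled TPM). The 31.6% called is below the 43.1% of all tested genes.

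**Figure D4:**
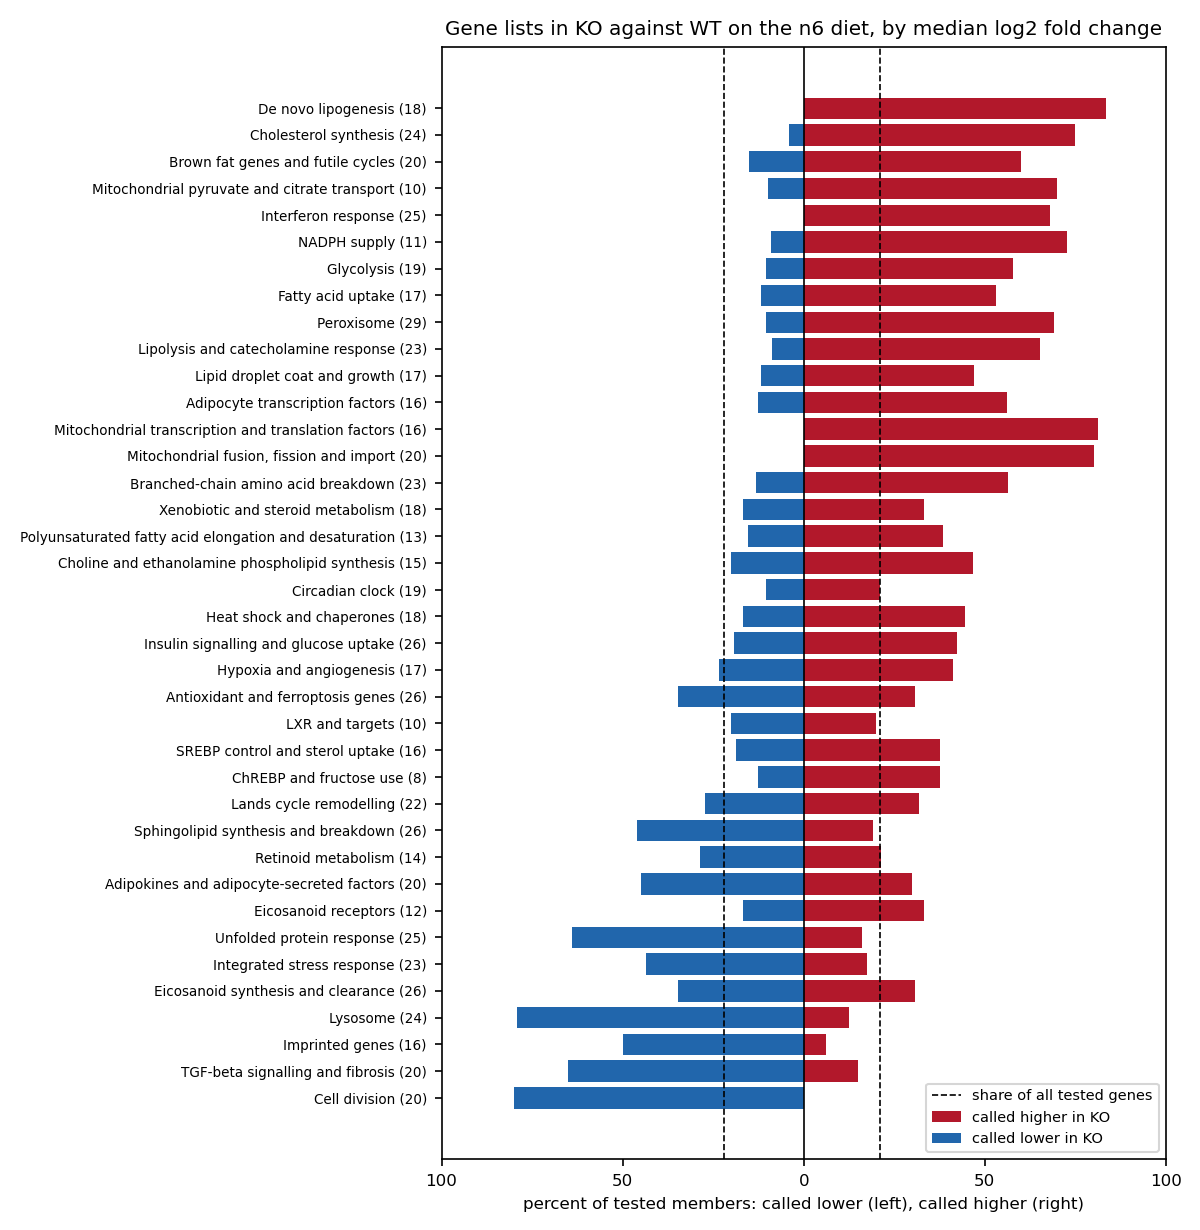
Percent of each list's tested members that were called higher (red, right) or lower (blue, left) in KO on the n6 diet, ordered by median log2 fold change, with the number of members tested in brackets. Dashed lines mark the 21% and 22.1% of all tested genes that were called in each direction; lipogenesis has 15 of 18 members to the right and cell division 16 of 20 to the left.

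The genotype difference on n6 was set against the same difference on the other diets, which share no library with it. It differed from that on SFA for 137 genes (0.898%), 71 with a positive difference and 66 with a negative one. Against n3 it differed for 1389 genes (9.1%), 705 positive and 684 negative. The genotype differences were both called and opposite in sign for 11 genes against SFA and for 80 against n3. The sets share 92 genes, and both differences rest on the same 8 n6 libraries.

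The 2 counts depended on single libraries. Against SFA the count was 82 and 56 without KO replicates 2 and 4 on n6, 54, 51, 70 and 345 without WT replicates 1 to 4 on n6, 48, 87 and 237 without KO replicates 1, 2 and 4 on SFA, and 55, 89 and 65 without WT replicates 2, 3 and 4 on SFA. Against n3 it was 730 and 735 without WT replicates 1 and 2 on n6, 880, 823 and 2693 without KO replicates 1, 3 and 4 on n3, and 825, 771 and 906 without WT replicates 1, 3 and 4 on n3. Without KO replicates 1 and 2 on n6 together the counts were 63 and 652. The genes named next kept their call with any 1 library left out.

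In Acss2, Insig1 and Scd1 the larger n6 difference went with lower KO and WT means on n6. Acss2 averaged 604 ± 40.9 CPM in KO and 117 ± 6.38 CPM in WT on n6, 980.2 ± 63.9 in KO and 363 ± 53.1 in WT on SFA, and 788 ± 40 in KO and 328 ± 18.6 in WT on n3 (SD, n = 4 in each group). Its KO and WT means were both lowest on n6, the WT mean by more. The genotype difference on n6 exceeded that on SFA by 0.93 ± 0.11 (adjusted p = 0.000122) and that on n3 by 1.10 ± 0.11 (adjusted p = 1.84e-05). Insig1 averaged 861 ± 29.5 CPM in KO and 247 ± 23.2 CPM in WT on n6, 1226 ± 87.4 in KO and 608 ± 90 in WT on SFA, and 1125 ± 69.1 in KO and 613 ± 42.5 in WT on n3. Its differences were 0.79 ± 0.12 (adjusted p = 0.00155) and 0.93 ± 0.12 (adjusted p = 0.000456).

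Scd1 averaged 67850 ± 2934 CPM in KO and 20630 ± 2916 CPM in WT on n6, against 99830 ± 5526 in KO and 52750 ± 2099 in WT on SFA, a difference of 0.80 ± 0.11 (adjusted p = 0.000531). Cidea averaged 27.9 ± 2.02 CPM in KO and 4.84 ± 1.99 CPM in WT on n6, 27.9 ± 4.21 in KO and 13.6 ± 3.1 in WT on SFA, and 32.7 ± 6.5 in KO and 14.3 ± 1.53 in WT on n3. The KO means of Cidea were alike on n6 and SFA while the WT mean on n6 was far below that on SFA (1.50 ± 0.29 (adjusted p = 0.0185) against SFA and 1.34 ± 0.28 (adjusted p = 0.00813) against n3).

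**Figure D5:**
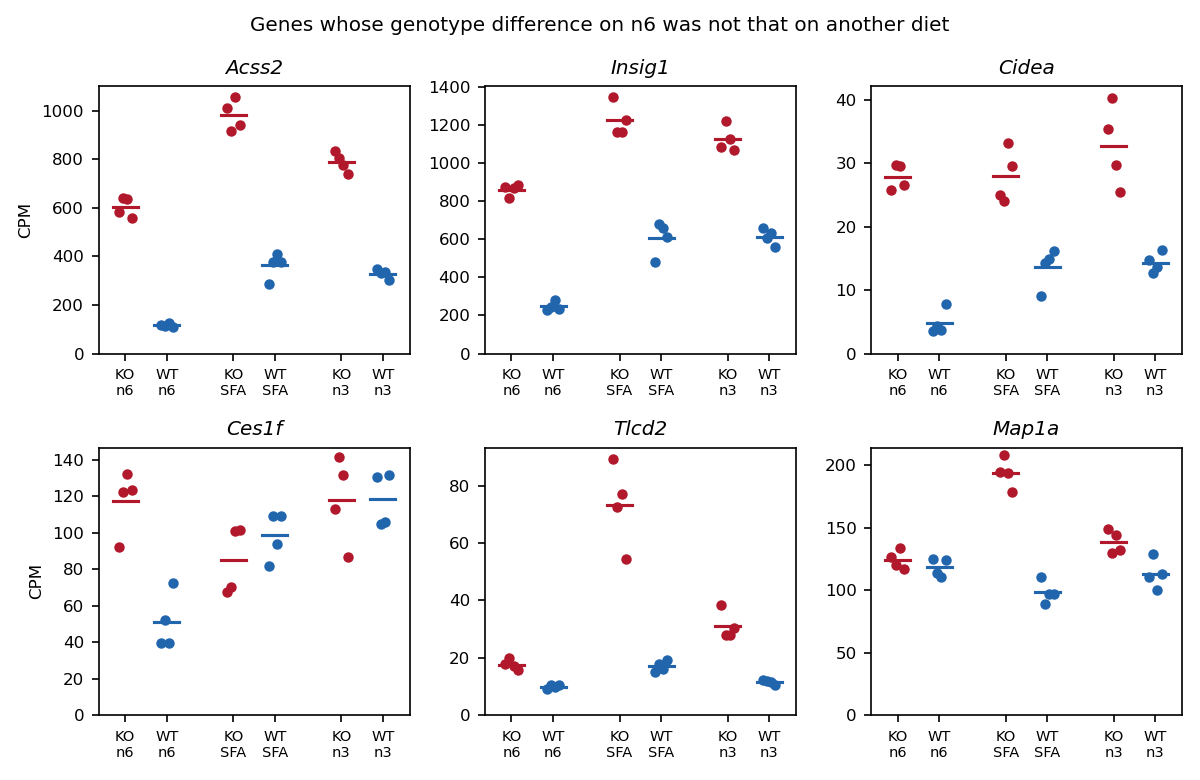
CPM per library for 6 genes on the 3 diets, with KO (red) left of WT (blue) on each diet and a line at each group's mean. KO on SFA has the highest mean Tlcd2 and Map1a, and WT on n6 has the lowest mean Acss2, Insig1, Cidea and Ces1f of all 6 groups.

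Ces1f, a carboxylesterase that hydrolyses lipids and was named after its values were seen, was called on n6 and not on the other diets. On n6 it had 92, 123, 132 and 123 CPM in KO libraries, against 39.3, 52.1, 39.5 and 72.6 CPM in WT libraries (log2 fold change 1.21 ± 0.20, adjusted p = 4.37e-05). It averaged 85.1 ± 18.8 CPM in KO and 98.6 ± 13.2 CPM in WT on SFA, where the genotype difference was not called (adjusted p = 0.416), and 118 ± 24.1 in KO and 118 ± 14.8 in WT on n3, where it was not called either (adjusted p = 0.995). The differences between diets were 1.42 ± 0.28 (adjusted p = 0.02) and 1.21 ± 0.27 (adjusted p = 0.0116). Hpgd rose on n6 and had 110.5 ± 3.88 CPM in KO and 124 ± 4.08 CPM in WT on SFA; the n6 difference exceeded those on SFA and n3 by 0.57 ± 0.089 (adjusted p = 0.00209) and 0.39 ± 0.089 (adjusted p = 0.0112).

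Genes with a larger rise on SFA included Tlcd2, a membrane protein that limits membrane fluidity. It averaged 17.6 ± 1.63 CPM in KO and 9.94 ± 0.658 CPM in WT on n6, against 73.4 ± 14.4 in KO and 17 ± 1.89 in WT on SFA, a difference between diets of -1.29 ± 0.18 (adjusted p = 0.000658). Mfsd12, a lysosomal cysteine transporter, averaged 62.8 ± 3.31 CPM in KO and 44.7 ± 6.32 CPM in WT on n6, against 118 ± 13.4 in KO and 41.5 ± 5.04 in WT on SFA (-1.02 ± 0.14 (adjusted p = 0.000756)). Rdh11, a retinal reductase, followed with -0.56 ± 0.085 (adjusted p = 0.00155).

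Map1a, a microtubule protein, was not called on n6 (adjusted p = 0.423), with 127, 121, 134 and 117 CPM in KO libraries, against 125, 113, 110.5 and 124 CPM in WT libraries. On SFA it averaged 194 ± 12.2 CPM in KO and 98.5 ± 8.98 CPM in WT (-0.90 ± 0.10 (adjusted p = 7.52e-05)). Asf1b, a histone chaperone of dividing cells, was not called on n6 either (adjusted p = 0.28) and differed by -1.12 ± 0.14 (adjusted p = 0.000269). C4b, a complement protein, fell on both diets and by less on n6 (0.56 ± 0.084 (adjusted p = 0.00134)).

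Against n3, the difference of Parm1 was 1.21 ± 0.17 (adjusted p = 0.000988); it averaged 185 ± 6.16 CPM in KO and 61.6 ± 4.76 CPM in WT on n3. Kcnc2 and Ptger3 followed with 1.03 ± 0.15 (adjusted p = 0.00104) and 0.63 ± 0.087 (adjusted p = 0.000945). For all 3 genes both means were lowest on n6, at 132 ± 7.96, 37.7 ± 2.42 and 428 ± 15.6 CPM in KO and 19 ± 1.57, 7.92 ± 1.19 and 144 ± 13.7 CPM in WT. Pdgfd, a platelet-derived growth factor, rose on n6, with 39.8, 38.6, 45.3 and 43.5 CPM in KO libraries, against 31.2, 32.6, 32.4 and 34.4 CPM in WT libraries, and averaged 36.7 ± 1.59 CPM in KO and 43.6 ± 1.39 CPM in WT on n3, the opposite direction (0.60 ± 0.076 (adjusted p = 0.000375)).

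A last group fell further on n6 than on n3. Sardh, which demethylates sarcosine, had 25.6, 26.4, 25.8 and 25.2 CPM in KO libraries, against 43.6, 44.1, 42.7 and 45.3 CPM in WT libraries, and averaged 27.7 ± 2.2 CPM in KO and 33.8 ± 1.8 CPM in WT on n3 (-0.48 ± 0.068 (adjusted p = 0.000945)). Rab29, a small GTPase of lysosomes, had 13.2, 13.7, 12.3 and 12.7 CPM in KO libraries, against 28.1, 24.9, 24.7 and 21.4 CPM in WT libraries, and averaged 14.2 ± 0.842 CPM in KO and 17.5 ± 0.688 CPM in WT on n3 (-0.63 ± 0.089 (adjusted p = 0.000945)). In both genes the KO means on the 2 diets lay close together and the WT mean was higher on n6. Jpt2 and Surf4, a cargo receptor of the endoplasmic reticulum, differed by -0.52 ± 0.076 (adjusted p = 0.00104) and -0.33 ± 0.049 (adjusted p = 0.00104).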

How the data were processed

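Bulk poly(A) RNA-seq of 24 libraries was used, 4 in each of 6 groups, taken from the labels. The authors deposited estimated counts and TPM per gene, 35727 genes in each table. The submitters' processing notes name fastp 0.23.2, Salmon (version not given in the sources used here) and mm10. Per the file headers, every library has both units; 1 table lists symbols and the other Ensembl IDs, and their rows were paired by order, with zeros at the same places in 100% of cells and symbols equal to those of the IDs in GENCODE vM21 for 34971 rows. The counts were rounded to whole numbers. They were filtered with filterByExpr (minimum count 10), scaled by TMM and tested with edgeR 4.0.16 in R 4.3.3 (quasi-likelihood, robust, 1 coefficient per group, 18 residual degrees of freedom), with Benjamini-Hochberg adjustment at 0.05. The same fit tested the genotype difference on n6 minus that on SFA or n3. Replicate libraries of a group differed by more than counting noise.

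Genes named are Lpcat3, the 15 largest rises and falls without overlap, up to 4 members per list and direction with the smallest p plus the most abundant one, any member of lists of up to 16 genes, and the 10 smallest p of each difference between diets; exceptions are named, and some genes are not reported here. The members and lists were chosen with earlier results of these data known. Lists are described by counts and medians, with no test of their own. Alternatives were DESeq2 1.42.0, limma 3.58.1 on log2 TPM, other scalings and filters, a replicate block, covariates and left-out libraries. TMM-scaled TPM were added after the data were seen. The procedure was checked on simulated counts in which a small share of genes changed, in random directions. That setting cannot check the TMM scaling where as many genes change as here. Promoters are from RefSeq, GRCm38.p6, matched by symbol.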

Additional observations from a re-analysis of the deposited data

Results flagged for a closer look

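A library stood apart from the other 3 of its group in 24 of the 370 groups of 4 values, by Dixon's gap over range. Chance alone does this in about 1 in 20 groups of independent values. The groups here were named genes and marker lists from the same libraries, some chosen after their values were seen. That rate is therefore no test of the count. In KO replicate 1 the values that stood apart were Myh4 at 114.6 CPM, Ckm at 29.3 CPM and the summed muscle markers at 547 CPM. In KO replicate 2 they were Cd79a at 8.40 CPM, Cr2 at 5.52 CPM, Ccl21a at 12.8 CPM, Scap at 49.9 CPM and Smpd3 at 27.3 CPM. In KO replicate 4 they were Kcnc2 at 41.3 CPM and Ppm1k at 11.4 CPM. WT replicate 4 stood apart for Cxadr at 1.64 CPM, Cidea at 7.78 CPM, Saa3 at 24.1 CPM, G6pdx at 239 CPM, Grb14 at 61.4 CPM, Adrb3 at 115 CPM, Aurkb at 5.03 CPM and the summed T cell markers at 22.9 CPM. WT replicate 2 stood apart for Pla2g5 at 9.18 CPM, Abhd3 at 7.70 CPM, Hmgcs1 at 465 CPM, Fabp4 at 9479 CPM and Npr3 at 2550 CPM, and WT replicate 3 for Wnt8b at 1.60 CPM.

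The genotype difference on n6 was not that on another diet, by a test of the difference itself, for 137 genes against SFA and 1389 against n3. Against SFA the named differences were positive for Cidea at 1.50, Ces1f at 1.42, Acss2 at 0.93, Scd1 at 0.80, Insig1 at 0.79, Hpgd at 0.57 and C4b at 0.56, on the log2 scale. They were negative for Tlcd2 at -1.29, Asf1b at -1.12, Mfsd12 at -1.02, Map1a at -0.90 and Rdh11 at -0.56. Against n3 they were positive for Cidea at 1.34, Parm1 at 1.21, Ces1f at 1.21, Acss2 at 1.10, Kcnc2 at 1.03, Insig1 at 0.93, Ptger3 at 0.63, Pdgfd at 0.60 and Hpgd at 0.39. They were negative for Rab29 at -0.63, Jpt2 at -0.52, Sardh at -0.48 and Surf4 at -0.33.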

How the results depend on the processing

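The genotype difference on n6 kept the direction of the named genes it called under every alternative except for Lpcat3. Lpcat3 was 0.097, 0.098 and 0.097 in the TPM fits with pseudocounts 1 and 0.1 and with no filter, and 0.29 in TMM-scaled TPM; its transcripts differed in length, as given above. Genes called higher numbered 1188, 1182 and 1188 in those 3 TPM fits, and genes called lower 6837, 6734 and 6650. Genes at 2-fold or more numbered 376 on log2(TPM + 1), 382 with no filter and 310 in TMM-scaled TPM. With 1 library left out at a time, 2866 to 3236 genes were higher, 2897 to 3275 lower, and 692 to 796 at 2-fold or more.

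The difference between n6 and SFA was called for 409 genes by DESeq2, 272 on log2(TPM + 1) and 63 without KO replicates 1 and 2 on n6, and for 48 to 345 with 1 library left out. The difference between n6 and n3 was called for 868, 833 and 644 genes in the 3 TPM fits, 910 in TMM-scaled TPM, 652 without KO replicates 1 and 2 on n6, 463 with the marker covariates, and 730 to 2693 with 1 library left out. The causes were not tested.

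Same-numbered KO and WT libraries on n6 correlated at 0.18, 0.19, -0.37 and -0.12 in their deviations from the group means. Differently numbered ones correlated at -0.253 to 0.355. With 4 libraries in a group, these values cannot show whether replicate numbers pair the libraries. With the replicate block the differences from SFA and n3 were called for 28 and 899 genes, Cidea and Ces1f lost their difference from SFA, and the counts of genes higher and lower on n6 stayed within 1.5 times. The calls of Cd79a and Cr2 rest on KO replicate 2 as given above, although every KO library lay above every WT library for both. Depth limits the scarce genes most: those under 1 CPM rest on about 50 counts or fewer.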
